A study of Mus musculus with 30 samples.

Results

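The genes described here are 10 genes that pattern the midbrain or act beside it: the Iroquois genes Irx1, Irx2, Irx3 and Irx5, the paired-box genes Pax3 and Pax7, the forkhead gene Foxb1, the zinc-finger genes Zic1 and Zic4, and Cnpy1. They were chosen by symbol, on their values in cultured spheres, where the libraries named MB were set against those named FB. All 10 are among the 26005 genes of the sphere count table, and 8 of them (not Pax3 and Pax7) are among the 14997 genes listed in at least 1 age of the captured tissue. The sphere values of these genes are therefore a description, and the tests concern the captured tissue.

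Polyadenylated mouse RNA was measured in 30 libraries, 20 from captured tissue and 10 from spheres. The captured libraries hold midbrain floor plate, the ventral midline, cut out by laser from mice carrying Lmx1aCreERT2 (a drug-inducible recombinase under control of Lmx1a, a floor plate gene) and the reporter R26TRAPC. There were 4 libraries at embryonic day 11 (E11), 5 at E13, 5 at E18 and 6 at postnatal day 70 (P70), all of that genotype. The sphere libraries, 5 MB and 5 FB, came from adult cells grown in vitro. The design text names neurospheres of the lateral ventricle and ependymal spheres of the midbrain aqueduct, while MB and FB are not spelled out in the labels. Nothing in the labels ties a library to an animal or a culture, or says whether captures share an animal, so the p-values measure only the spread between these libraries and are too small where an animal gave several.

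Iroquois proteins are homeodomain transcription factors that lie in a pair of gene clusters and divide the neural plate into territories, among them the midbrain behind its border with the forebrain. Zic1 and Zic4 are zinc-finger factors of the dorsal neural tube and the cerebellum, encoded head to head, and Pax3 and Pax7 mark the dorsal neural tube, including the roof of the midbrain. Foxb1 is a forkhead factor of the midbrain and the caudal diencephalon. Cnpy1 encodes a protein of the secretory pathway known from fish to promote fibroblast growth factor (FGF) signalling at the isthmus, the border of midbrain and hindbrain, where En1 and En2 are also active.

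On mouse build GRCm38, Irx1 lies at chr13:71957921-71963723 (minus strand) and Irx2 at chr13:72628820-72634198 (plus strand), with no coding gene between them. Irx3 at chr8:91798525-91802067 (minus) and Irx5 at chr8:92357625-92376286 (plus) form part of the other cluster. Pax3 lies at chr1:78101267-78197134, Pax7 at chr4:139737062-139833528 and Foxb1 at chr9:69757710-69760940, all on the minus strand. Zic1 at chr9:91358058-91365810 (minus) and Zic4 at chr9:91362413-91389348 (plus) overlap, and Irx3 and Foxb1 each overlap a non-coding gene on the opposite strand. The libraries carry no strand, so reads from such overlaps cannot be assigned to 1 gene. Cnpy1 lies at chr5:28200819-28245806 (minus), and its nearest coding gene is En2, 28653 bases away.

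RefSeq promoter windows of build GRCm38.p6, 250 bases before a start, were matched for 6 of the genes. Those of Irx2 and Zic1 and both starts of Cnpy1 are shown without exon bases, since these genes span the sphere response from its smallest difference (Zic1) to its largest (Cnpy1). Capitals mark CCAAT and GGGCGG, read on both strands.
Irx2, chr13:72628570-72628819, plus strand: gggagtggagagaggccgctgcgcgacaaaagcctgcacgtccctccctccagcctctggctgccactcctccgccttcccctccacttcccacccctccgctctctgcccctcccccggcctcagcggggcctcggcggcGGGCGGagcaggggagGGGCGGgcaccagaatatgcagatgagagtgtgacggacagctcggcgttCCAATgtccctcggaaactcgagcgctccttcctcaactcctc
Zic1, chr9:91365811-91366018, minus strand: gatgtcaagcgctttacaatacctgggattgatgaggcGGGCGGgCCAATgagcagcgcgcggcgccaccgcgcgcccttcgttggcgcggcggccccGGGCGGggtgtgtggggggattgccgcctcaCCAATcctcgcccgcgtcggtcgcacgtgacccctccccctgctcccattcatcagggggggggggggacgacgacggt
Cnpy1, chr5:28245807-28246038, minus strand: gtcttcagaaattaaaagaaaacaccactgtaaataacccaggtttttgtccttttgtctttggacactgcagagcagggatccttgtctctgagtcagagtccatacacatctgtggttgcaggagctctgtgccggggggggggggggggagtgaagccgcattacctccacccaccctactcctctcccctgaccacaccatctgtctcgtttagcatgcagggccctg
Cnpy1, chr5:28210364-28210418, minus strand: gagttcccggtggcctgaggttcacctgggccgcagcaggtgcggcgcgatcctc
The Irx2 window held 1 CCAAT and 2 GGGCGG, and the Zic1 window held 2 of each. Over all 32851 windows of 250 bases, 33.8% held a CCAAT and 32.7% a GGGCGG on either strand. The upstream Cnpy1 window held neither, and the window at its other start held 1 GGGCGG, which falls past the bases shown. The letters TATAAA (12.4% of all windows), TAATTA (4.84%) and GGATTA (6.25%) were found in none of the windows of the 6 genes. The full Zic1 window was rich in CpG, with 27, as was that at the other Cnpy1 start, with 29, against a median of 6 over all windows, while the upstream Cnpy1 window held 4.

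Sphere libraries held 6327198 to 9291311 counts, and sphere levels are given as CPM, counts scaled to the size of the library. Captured levels are the deposited values, called units here, which behave like RPKM and so are already set per length. Captured values are listed for a gene only at ages with a mean of 1 unit or more. Whole reads recovered behind these values came to 1094761 (P70) to 3848882 (E13) per library, so 1 read of Irx2 was worth 0.0693 to 0.106 units at E13 and 0.111 to 0.254 at P70. The summed floor plate markers (Lmx1a, Foxa1, Foxa2, Shh, Corin, Ferd3l) were 302 to 397 units in E11 libraries, 261 to 354 in E13 libraries, 132 to 179 in E18 libraries and 23.6 to 75.7 in P70 libraries, where Shh and Corin were not listed. Ependymal markers summed to 14 to 40.9 units in E11 libraries, 3861 to 5439 in E18 libraries and 10370 to 17053 in P70 libraries. Floor plate markers were thus measured at every age, less of them later, and the ependymal sum was the larger from E18 on. For every gene below, fewer cells of a type and less RNA per cell cannot be told apart.

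In the spheres, 9 of the 10 genes had every MB library above every FB library, and Pax7 was the exception. Of the 12886 genes that passed the low-count filter, which Irx1 and Pax7 did not, 12.3% were placed that way. The genes were chosen on this contrast, so nothing is read from their count. The order of MB levels per kilobase of exon was Cnpy1, Irx3, Irx5, Foxb1, Irx2, Pax3, Zic1, Zic4, Irx1 and Pax7. Cnpy1, at 9.44 CPM per kilobase, stood apart from Irx3 at 1.98, and Irx1 at 0.272 stood apart from Pax7 at 0.0045, while the libraries of all other neighbours in this order overlapped. In FB spheres Zic1 came first at 0.371 CPM per kilobase, and no neighbours stood apart.

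**Figure D1:**
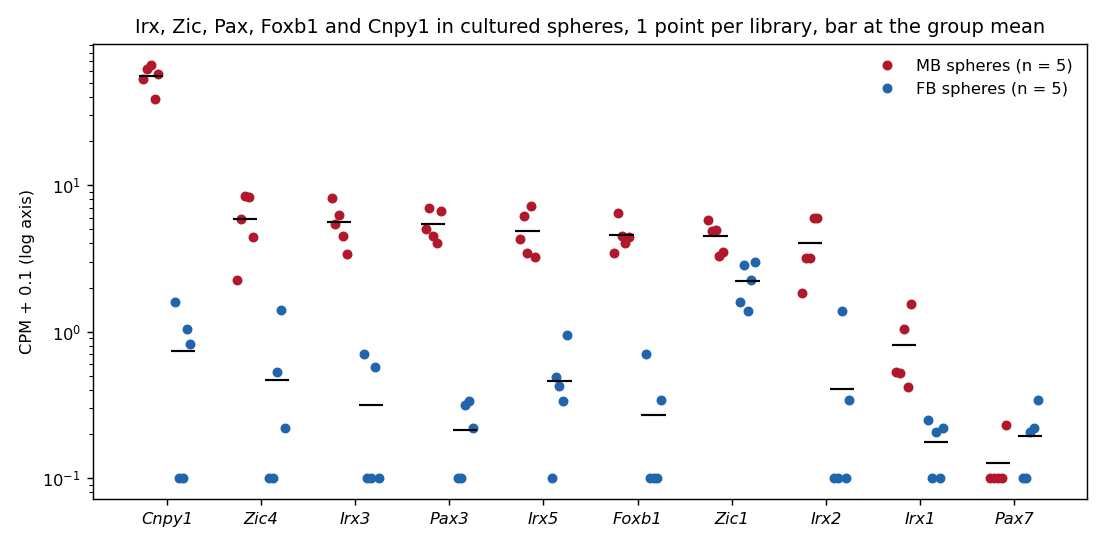
Level of each gene in every sphere library, as CPM plus 0.1 on a log axis, MB in red and FB in blue, n = 5 each, with a bar at the group mean. Points at the lower edge are libraries with 0 counts. Cnpy1 lies at 38.7 to 66.1 CPM in MB, the red and blue points of Zic1 come closest without overlapping, and Pax7 is near 0 in both.

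Cnpy1, the FGF modulator, had 368, 443, 557, 245 and 433 counts in the MB libraries and 10, 0, 0, 8 and 6 in the FB libraries. The MB mean was 55.3 ± 10.5 CPM and the FB mean 0.634 ± 0.644 (SD, n = 5 each). The log2 difference was 6.46 (SE 0.40), which placed Cnpy1 8th of 12886 tested genes by rise.

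The Iroquois genes were low in number of counts but close to absent in FB. Irx3 had 56, 38, 52, 28 and 25 counts in MB and 4, 0, 0, 4 and 0 in FB, a log2 difference of 4.62 (SE 0.74). Irx5 had 29, 43, 28, 45 and 24 counts in MB and 0, 3, 3, 2 and 7 in FB, a difference of 3.61 (SE 0.61). Irx3 and Irx5, neighbours in 1 cluster, thus overlapped in level in MB, at 5.46 ± 1.82 and 4.76 ± 1.74 CPM.

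Irx2 had 12, 22, 26, 37 and 45 counts in MB and 0, 0, 12, 0 and 2 in FB. FB replicate 3 held 12 of the 14 FB counts. The log2 difference was 3.49 (SE 0.81), and 5.60 without that library. Irx1 had 3, 3, 8, 2 and 11 counts in MB and 1, 0, 1, 0 and 1 in FB, too few to enter the fit, so it gets no fold. Its MB counts lay above its FB counts in every library, at 0.712 ± 0.476 against 0.0756 ± 0.0707 CPM. That gap rests on 2 counts in MB replicate 4, under a floor of 3 counts, against 1 count in the highest FB libraries.

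Pax3 had 34, 49, 37, 25 and 50 counts in MB and 0, 0, 2, 2 and 1 in FB, a log2 difference of 5.25 (SE 0.64) that placed it 10th by rise. Its relative Pax7 had 1 count in the 5 MB libraries together and 4 in the 5 FB libraries, at or near the floor of 3 counts in each group, and gets no fold. The dorsal pair was therefore split in the spheres, with Pax3 at 5.33 ± 1.30 CPM in MB and Pax7 at 0.0262 ± 0.0585. Pax3 also marks muscle precursors and neural crest. The 6 markers of those cells summed to 1.9 to 5.2 CPM in MB and 0.749 to 3.73 in FB, with Foxd3 at 0 in MB, and Mitf gave most of the MB sum at 2.94 CPM. Their part in the Pax3 level was not tested.

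Foxb1 had 23, 45, 37, 25 and 33 counts in MB and 4, 0, 0, 0 and 2 in FB, a log2 difference of 4.70 (SE 0.74), which became 5.87 without FB replicate 1. Zic4 had 15, 41, 70, 52 and 33 counts in MB and 0, 0, 4, 11 and 1 in FB, a difference of 3.82 (SE 0.73), and 5.08 without FB replicate 4, which held 11 of its 16 FB counts. Its head-to-head neighbour Zic1 had 39, 34, 41, 20 and 26 counts in MB and 10, 21, 12, 18 and 24 in FB. At 4.37 ± 1.05 against 2.11 ± 0.717 CPM, its log2 difference of 1.02 (SE 0.42) ranked 843rd. FB spheres thus held Zic1 in every library and little Zic4, while MB spheres held both.

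Meningeal cells also express Zic genes. The 6 meningeal and fibroblast markers summed to 1.58 to 7.37 CPM in MB and 6.41 to 13.4 in FB. Cerebellar granule neurons express them too, and the 6 markers of those cells summed to 190 to 214 CPM in MB and 119 to 160 in FB. Nearly all of that sum was Etv1, at means of 198 and 140 CPM. The part of meningeal cells and granule neurons in the Zic levels was not tested. Of the 8 genes that passed the default filter on low counts, 7 passed an edgeR adjusted p of 0.05 as higher in MB and Zic1 did not. With DESeq2 all 8 passed. Of all 12886 genes tested, 29.6% passed and 15.3% passed as higher. Since this contrast chose the genes, that count supports nothing.

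Other genes of the Iroquois and Zic families were measured beside them. Of 6 relatives, 3 were abundant enough to test and 1 rose. The median of the 3 was 1.6, against -0.02 over all genes.

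Of 24 midbrain and isthmus genes, 11 were tested, 6 rose and 2 fell, with a median of 0.46. Otx2, a homeodomain factor of forebrain and midbrain, rose from 2.40 ± 1.48 to 16.5 ± 0.835 CPM (log2 change 2.75, SE 0.34, edgeR adjusted p = 4.31e-06). Efna5, a guidance ligand, rose by 1.66 (SE 0.36, edgeR adjusted p = 0.00149), and the FGF feedback phosphatase gene Dusp6 and the canopy gene Cnpy2 rose by 0.46 and 0.41. Meis2 and Meis1, partners of homeodomain factors, fell by 2.33 and 0.57. En1 and En2, the genes nearest Cnpy1 in position or territory, were too low for the fit at 1.05 ± 0.609 and 0.874 ± 0.51 CPM in MB and 0.119 ± 0.146 and 0.0712 ± 0.159 in FB. MB spheres thus held much Cnpy1 with little of either engrailed gene.

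Of 24 dorsal and intermediate midbrain genes, 7 were tested, 4 rose and 1 fell. Ebf1 rose by 3.35 (SE 0.66, edgeR adjusted p = 0.000626), Nkx2-2 by 0.97, Tcf7l2 by 0.69 and Dbx2 by 0.48, while Helt fell by 2.46. Of 12 floor plate genes only Ntn1 and Slit2 were abundant enough to test, and Ntn1 rose by 0.48. Foxa2 reached just 0.282 ± 0.354 CPM in MB, so the MB spheres carried Iroquois, Pax3, Foxb1 and Zic RNA almost without the floor plate factors.

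Forebrain genes went the other way. Of 20, 9 were tested, 7 fell and 1 rose, with a median of -4.07. Six3 fell by 6.91 (SE 0.51, edgeR adjusted p = 3.18e-09). Dlx2 had 0 counts in all MB libraries and was at least 52.7-fold lower, taking a floor of 3 counts over the group. With Dlx2 at that bound the median stayed -4.07. Of 17 hindbrain and spinal genes, 2 could be tested and both rose, with a median of 1.08. The 15 Hox genes of that list fell below the filter.

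**Figure D2:**
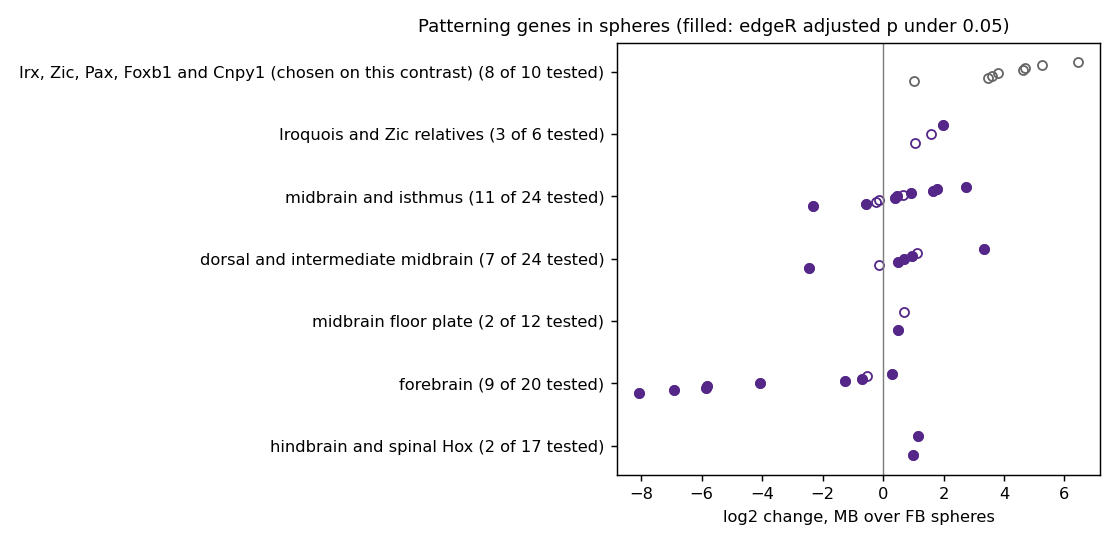
Log2 change of each tested gene between MB and FB spheres, 1 row per gene list, with filled points at an edgeR adjusted p under 0.05. The open grey points of the top row are the genes chosen on this contrast. The lowest forebrain point is Dlx2, at 0 counts in MB, whose place depends on the fit and is no bound. Forebrain points reach below -4 while the top row runs from 1.02 to 6.46.

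In the captured floor plate, Cnpy1, Irx2, Irx3, Irx5 and Foxb1 were listed at all 4 ages. Zic1 was listed only at E11, and Zic4 and Irx1 at E11 and E18. The 5 genes listed throughout were tested between neighbouring ages. At E13 against E11, 1 of 5 passed a limma adjusted p of 0.05 (Cnpy1, higher), where 20.4% of all genes passed and 9.26% passed as higher. At E18 against E13, 1 of 5 passed (Cnpy1, lower), where 47% of all genes passed and 24.8% passed as lower. At P70 against E18, 2 of 5 passed (Irx3 and Irx5, higher), where 40.7% of all genes passed and 16.8% passed as higher. With a weight per library, 4 of the 5 passed at E18, where 3221 of all 11797 genes passed as higher and 3699 as lower. With edgeR on the recovered reads 3 of the 5 passed, where 2273 of 9034 genes passed as higher and 2349 as lower. Neighbouring comparisons share the libraries of the age between them.

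**Figure D3:**
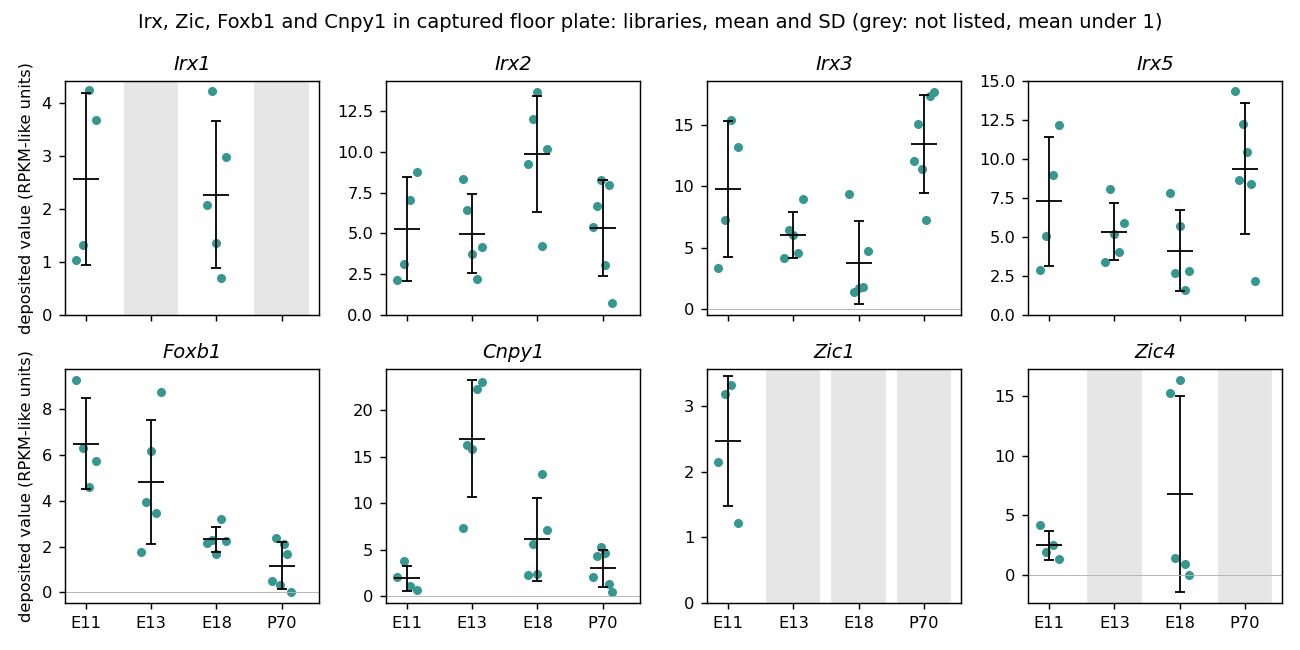
Deposited value of each gene in every captured library (points), with the mean and SD of each age (bars), with 4, 5, 5 and 6 libraries from the first age to the last. Grey marks ages at which a gene is not listed. Cnpy1 peaks at E13, Irx3 is lowest at E18 and highest at P70, and Zic4 at E18 is split between a library at 0 and libraries above 15 units.

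Cnpy1 measured 2.08, 3.76, 1.08 and 0.687 units in the E11 libraries and 7.31, 16.2, 15.8, 22.3 and 23.1 at E13. Every E13 library lay above every E11 library. The means were 1.90 ± 1.37 (n = 4) and 16.9 ± 6.33 (n = 5), a rise of 2.65 on the log2(value + 1) scale (SE 0.48, limma adjusted p = 0.000529), which understates the change of a low gene.

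At E18 Cnpy1 was at 2.22, 5.60, 2.38, 13.2 and 7.07 units, overlapping the lowest E13 library. The change from E13 was -1.47 on the same scale (SE 0.45, limma adjusted p = 0.0110). At P70 it ran from 0.395 over a median of 3.16 to 5.26 units, and the further difference of -0.80 (SE 0.44) did not pass (limma adjusted p = 0.152). The summed markers of other cell types moved at these steps too. From E11 to E13 the libraries stood fully apart for neural stem and progenitor cells (1497 to 1827 units, then 7063 to 14018), neurons (275 to 823, then 947 to 2708), astrocytes (33.6 to 52.7, then 76.5 to 167), microglia (32.9 to 62.5, then 110 to 179) and, downward, mural cells (214 to 662, then 55.4 to 110). From E13 to E18 the ependymal, oligodendrocyte and muscle and neural crest sums were higher in every library, and the floor plate, progenitor, choroid plexus, granule neuron and endothelial sums lower. Each sum held only the markers listed at that age, and some rested on few genes. The largest progenitor marker was Vim at E11 (mean 1021 units) and Fabp7 at E13 (8467) and E18 (3211), with Egfr not listed at these ages. Most of the progenitor sum at E13 was thus Fabp7. The largest mural marker at E11 was Vtn (mean 377 units), with Rgs5 and Abcc9 not listed. The largest astrocyte marker at E13 was Aldh1l1 (96.5), with Gfap and S100b not listed at either age and Aqp4 not listed at E11. Otx2, also on the midbrain list, was the largest choroid plexus marker at E11 (217) and E13 (186). The part of these shifts in the Cnpy1 changes was not tested.

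By mean level Cnpy1 was the lowest of the 8 listed genes at E11 and the highest of the 5 at E13, although at both ages its range overlapped that of the gene next to it in order.

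The engrailed genes rose at the same step. En1 went from 16.1 ± 7.87 units (n = 4) at E11 to 106 ± 15 (n = 5) at E13 (log2 change 2.77, limma adjusted p = 0.00064) and fell by 1.67 toward E18 (limma adjusted p = 0.00765). En2 rose by 1.94 to E13, from 3.49 ± 2.46 to 14.2 ± 2.59 units (limma adjusted p = 0.0140). Measured over the 4 age means, each centred on its own mean, the genes most like Cnpy1 among 6580 of similar level were Serpini1 (root mean square log2 difference 0.203), En2 (0.313) and Tmprss5 (0.315). En2 is also its neighbour on chromosome 5.

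The E11 libraries fell into different patterns for Cnpy1 and for the Iroquois genes. Libraries 1 and 2 had more Cnpy1 than libraries 3 and 4, and likewise more En2, at 5.61 and 5.59 against 1.89 and 0.889 units, and more En1, at 24.3 and 20.7 against 12.4 and 6.93. The Iroquois genes were the lower in libraries 1 and 2, in all 4 cases. Irx3 measured 3.35 and 7.26 units there against 15.4 and 13.2, Irx5 2.88 and 5.06 against 9.0 and 12.2, Irx2 2.11 and 3.11 against 7.07 and 8.78, and Irx1 1.04 and 1.32 against 4.24 and 3.69. The floor plate marker sum was 374 and 397 units in libraries 1 and 2 against 342 and 302, and choroid plexus markers, at 536 and 405 against 378 and 353, and mural markers, at 662 and 408 against 315 and 214, were likewise the higher there. Neuron markers were the lower, at 275 and 447 against 545 and 823 units, as were granule neuron markers. At E11 the largest choroid plexus marker was Otx2 and the largest mural marker was Vtn. The part of these cell types in the split was not tested.

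Irx3 measured 9.80 ± 5.50 units at E11 (n = 4), and 4.21, 6.46, 6.02, 4.56 and 8.98 at E13. At E18 it measured 9.36, 1.38, 1.74, 1.84 and 4.72 units, with replicate 1 well above the rest. At P70 it ran from 7.27 over a median of 13.5 to 17.7 units, and only E18 replicate 1 reached into that range. The rise from E18 to P70 was 1.78 in log2 (SE 0.37, limma adjusted p = 0.000683). The differences of -0.48 from E11 to E13 (SE 0.41) and -0.76 from E13 to E18 (SE 0.39) did not pass (limma adjusted p = 0.461 and 0.117). Without E18 replicate 1 the latter was -1.10 and passed (limma adjusted p = 0.0182). Irx3 had the highest mean of the listed genes at E11 and at P70, overlapping Irx5, the next, at both ages.

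Irx5, its cluster neighbour, measured 7.29 ± 4.14 units at E11 (n = 4) and 3.41, 8.10, 5.20, 4.01 and 5.86 at E13. At E18 it stood at 7.83, 2.67, 5.72, 1.58 and 2.78 units, and at P70 it ran from 2.14 over a median of 9.53 to 14.4, so these ages overlapped. Its rise from E18 to P70 was 1.01 (SE 0.39, limma adjusted p = 0.0449). That call was narrow: it was lost when any 1 of E18 replicates 2, 4 and 5 or P70 replicates 1 to 5 was left out, with log2 changes of 0.80 to 1.01 and limma adjusted p of up to 0.132. The earlier differences of -0.29 (SE 0.44) and -0.40 (SE 0.41) did not pass. The Irx5 call was also lost with a pseudocount of 0.1, with only the 2 ages fitted and with edgeR on recovered reads. It was thus lost in 11 of 19 alternatives, while that of Irx3 passed in all 19. Both genes were higher on average at P70 than at E18, but only the Irx3 rise was firm.

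Ependymal markers also differed at that step, and every P70 library lay above every E18 library, while the floor plate sum was lower in every P70 library than in any E18 library. The sums also stood fully apart for astrocytes (163 to 344 units, then 766 to 1200), the oligodendrocyte lineage (51.4 to 74.5, then 194 to 671), choroid plexus (60.1 to 120, then 247 to 367) and, downward, progenitors (4216 to 5251, then 898 to 1399) and neurons (769 to 1883, then 257 to 546). Some of these sums rested largely on 1 gene. The largest astrocyte marker was Gja1 at E18 (mean 96.1 units) and S100b at P70 (613). The largest choroid plexus marker was Folr1 at both ages (53.6, then 259). The largest progenitor marker was Fabp7 at E18 (3211) and Vim at P70 (706). The part of these shifts in the Irx3 and Irx5 rise was not tested. Over the 4 age means the genes most like Irx3 were Eng (root mean square log2 difference 0.061), Efna1 (0.122) and Lats2 (0.150), among 6900 of similar level. Those most like Irx5 were F11r (0.0337), Mthfsd (0.0465) and Bud13 (0.0531).

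Irx2 took another course. It measured 8.35, 6.45, 3.71, 2.20 and 4.13 units at E13 and 9.27, 12.0, 13.7, 4.25 and 10.2 at E18, where 4 of the 5 libraries lay above every E13 library. At P70 it ran from 0.736 over a median of 6.03 to 8.24 units. Its differences were -0.02 from E11 to E13 (SE 0.46), 0.88 from E13 to E18 (SE 0.43) and -0.89 from E18 to P70 (SE 0.42), with limma adjusted p of 0.988, 0.102 and 0.0922, so none passed. The low library at E18 was replicate 4. Without it the later differences were 1.13 and -1.14, and both passed (limma adjusted p = 0.0456 and 0.0429). Other libraries moved the values the other way: the rise was 0.68 without E13 replicate 4, and the later difference -0.56 without P70 replicate 6 (limma adjusted p = 0.243 and 0.229). Irx2 had the highest mean of the 7 listed genes at E18, with a range that overlapped that of Zic4, the next. The age profiles most like it were those of Masp2 (0.0171), Rnft2 (0.0384) and Mir6958 (0.04).

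Foxb1 measured 9.29, 6.32, 4.62 and 5.74 units at E11 and 1.74, 3.95, 6.19, 3.48 and 8.74 at E13. It stood at 2.16, 2.3, 1.69, 3.19 and 2.24 at E18, and at P70 ran from 0 over a median of 1.08 to 2.38 units. Every E11 library lay above every E18 and every P70 library. Each step was downward, by differences of -0.46 (SE 0.38), -0.70 (SE 0.36) and -0.75 (SE 0.34), and none passed (limma adjusted p = 0.439, 0.116 and 0.0850). Without E13 replicate 1 the change to E18 was -0.94 and passed, and without P70 replicate 2 that to P70 was -0.91 and passed (limma adjusted p = 0.0356 and 0.0417). Without E13 replicate 5 the former was -0.48, and without P70 replicate 6 the latter was -0.56 (limma adjusted p = 0.304 and 0.178). Its nearest profiles were those of Ints7 (0.0213), Ythdf3 (0.0318) and Mapk7 (0.0512).

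**Figure D4:**
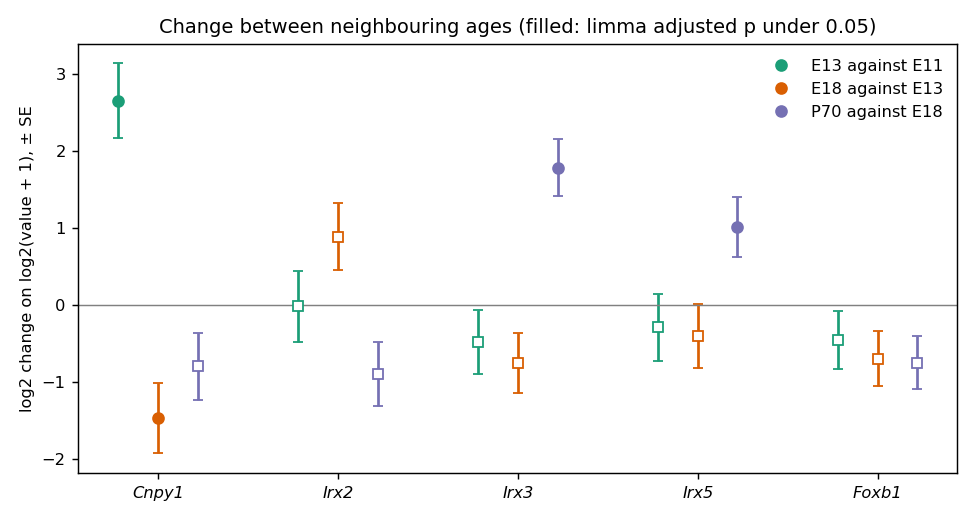
Change of each gene listed at all ages between neighbouring ages, on the log2(value + 1) scale with its SE, filled where the limma adjusted p is under 0.05. Filled points are the rise of Cnpy1 to E13 (2.65), its fall to E18 (-1.47) and the rises of Irx3 (1.78) and Irx5 (1.01) to P70. All 3 Foxb1 points lie below 0 and are open.

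Irx1 was listed at E11, at 2.58 ± 1.63 units (n = 4), and at E18, at 2.07, 4.23, 1.36, 0.688 and 2.99 units, and had a mean under 1 unit at E13 and P70. Zic1 measured 2.14, 3.18, 3.33 and 1.22 units at E11 and was not listed later. Zic4 measured 4.16, 1.96, 2.51 and 1.31 units at E11, so both head-to-head genes were present at the first age. The meningeal and fibroblast markers summed to 44.1 to 151 units at E11, with all 6 listed, against 2.56 to 8.48 at E18. Their lowest E11 library, replicate 4, was also the lowest for Zic1 and Zic4. Replicate 4 was lowest as well for the floor plate, ependymal, progenitor, mural and choroid plexus sums. The part of these cell types in the Zic levels was not tested.

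At E18 Zic4 was listed without Zic1. It measured 15.2, 1.46, 16.4, 0.925 and 0 units, which were 233, 28, 333, 16 and 0 recovered reads. Replicates 1 and 3 thus held nearly all of it, and the age mean of 6.79 ± 8.24 units (n = 5) describes no library. Cerebellar granule neurons express Zic genes. The summed markers of that cell type were highest in the same libraries, at 21.7 and 19.8 units against 9.38 to 15.8 in the others, while its defining markers Gabra6, Cbln3 and Fat2 were not listed. The floor plate sum was lowest in these 2 libraries, at 141 and 132 units against 152 to 179. The microglia sum, at 66.7 and 169 against 206 to 334, and the muscle and neural crest sum were also lowest there. The part of these cell types in the Zic4 split was not tested.

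Replicates 1 and 3 at E18 differed from the others in more than Zic4. They had the lowest Cnpy1, at 2.22 and 2.38 units, the lowest En2, at 2.27 and 0.854 against 4.95 to 9.48, and the highest Irx5, at 7.83 and 5.72 units. En1 did not split that way, at 8.36, 27.0, 35.2, 60.1 and 71.2 units over the 5 libraries. Replicate 4 had the highest Cnpy1, at 13.2 units, and the lowest Irx1, Irx2 and Irx5. The library with the most Cnpy1 at E18 thus had the least of 3 Iroquois genes, as the E11 libraries with more Cnpy1 had less of all 4. This order did not hold at the other ages. At E13, replicate 1 had the lowest Cnpy1 (7.31 units) with the lowest Irx3 (4.21) and Irx5 (3.41), but the highest Irx2 (8.35). At P70 the library with the least Cnpy1 also had the least Irx2 and Irx5, but the most Irx3. These splits of 4 and 5 libraries were noticed in the values, and no test was run on them. Without replicate 1 or replicate 3, Cnpy1 still passed, with changes of -1.24 and -1.26 from E13.

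At P70, replicate 6 was the lowest library for Cnpy1 (0.395 units), Irx2 (0.736), Irx5 (2.14) and Foxb1 (0), and the highest for Irx3 (17.7). It also had the lowest floor plate marker sum, 23.6 units against 49.2 to 75.7, and the largest share of listed genes at 0, 8.05% against 2.21% to 5.49%. Its ependymal sum of 15482 units was within the range of the others, and its endothelial and granule neuron sums, 50.9 and 16.0 units, were the highest. Without it the log2 change to P70 was 1.70 for Irx3 and 1.33 for Irx5, and both passed.

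Of the genes around them, relatives were hardly present in the captured tissue: none of the 6 was listed at neighbouring ages. Of the midbrain and isthmus list, 16 were tested at E13 against E11. En1 and En2 rose, and the FGF-regulated Sp5 (log2 change -2.45, limma adjusted p = 7.80e-05) and Fgf8, the isthmic signal itself, fell (-1.91, limma adjusted p = 0.0195). The list's median was -0.47, against -0.04 over all genes. Cnpy1 and the engrailed genes were thus higher at the age where Fgf8 was lower.

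From E13 to E18, 13 of that list were tested, 8 fell and Meis2 rose. Otx2 fell from 186 ± 49.8 to 38.1 ± 9.57 units (n = 5 each, log2 change -2.25, limma adjusted p = 4.36e-08), and the median was -0.71 against -0.04. From E18 to P70, 10 were tested, of which Cnpy2 rose by 0.54 and 4 fell (Meis2, Efna2, Meis1 and Efna5), with a median of -0.71 against -0.14. Otx2 did not pass at that step and stood at 38.6 ± 10.2 units at P70 (n = 6).

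Of the dorsal and intermediate midbrain list, 13 were tested at E13 against E11, and 2 rose (Ebf2, Msx1) and 4 fell (Dbx1, Tal2, Tcf7l2, Barhl1). Dbx1, a progenitor factor, fell from 60.7 ± 44.5 to 5.19 ± 4.78 units (log2 change -3.51, limma adjusted p = 0.00181). At E18 against E13, 2 of 14 rose (Nkx2-2, Tcf7l2) and 5 fell, and at P70 against E18, 3 of 13 rose (Nkx6-1, Tcf7l2, Nkx6-2) and 4 fell. The medians were 0.23, -0.36 and -0.42, against -0.04, -0.04 and -0.14 over all genes.

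Floor plate genes had 1 rise (Nr4a2) and 1 fall (Shh) among 11 at E13, 1 rise (Ntn1) and 5 falls among 12 at E18, and 6 falls among 10 at P70. The largest fall at P70 was that of Ntn1, from 317 ± 55.5 (n = 5) to 24.2 ± 7.46 units (n = 6, log2 change -3.70, limma adjusted p = 8.43e-11). The medians were 0.20, -0.39 and -0.96, against -0.04, -0.04 and -0.14 over all genes. At P70, 23.9% of all genes passed as lower. Forebrain genes were mostly not listed: 2 were tested at E13, 3 at E18, where 1 fell, and 2 at P70, where both fell. Of the hindbrain and spinal list 1 gene was tested at E18 and at P70, and it did not pass.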

How the data were processed

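Per the labels, RNA from an RNeasy micro kit was copied by Smart-seq2 and tagged with Tn5, with no molecular identifiers and no strand. The submitters' processing notes name STAR 2.3, Salmon 1.6.0, DESeq2 1.34.0, mm10 and GRCm39. Which tool counted reads, and over which annotation, is not stated in the labels or headers. The authors deposited whole-number counts for the spheres, and for the captured libraries another unit, not named, which behaves like RPKM: whole reads within 0.01 were recovered for 78.1% of genes, including all 8 listed genes. Of 15139 captured lines, 142 with 1 of 11 repeated symbols were left out. Columns carry the sample names (0 columns left out), and 0 pairs of libraries were identical.

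Captured values were tested with limma 3.58.1 (R 4.3.3) on log2(value + 1) with a prior trend, all 20 libraries in 1 fit, over genes listed at both ages. For the sphere counts, edgeR 4.0.16 (TMM scaling, default low-count filter) gave quasi-likelihood fits, with SEs taken from the quasi F. Benjamini-Hochberg adjustment ran over every gene of a comparison, at a threshold of 0.05. The read recovery and both fits were tested on simulated data. Of simulated 2-fold changes on the fitted scale, 47% were recovered at E13, 50% at E18, 60% at P70 and 66% in the spheres. Of 4-fold changes, 94%, 93%, 91% and 87% were recovered. Of the simulated calls, 5.37%, 2.05%, 3.21% and 6.71% were false. A difference that did not pass can thus be a real one of about 2-fold.

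The genes described and the gene lists were chosen with earlier results of these data known. Named were these 10 genes, up to 4 genes per list and direction with the smallest p among those that passed, and the 3 genes nearest in age profile. Other names of list genes, and En1, En2 and Foxa2 in the spheres, are levels beside these and were picked after their values were seen. Alternatives covered the pseudocount (0.1, 5), low-value filters, scaling, library weights, fits of 2 ages, the replicate block, DESeq2 1.42.0, each library left out and, added after seeing the data, edgeR on recovered reads. No label says that replicate numbers pair libraries. Deviations of same-numbered libraries correlated at -0.148 to 0.250 between ages and -0.0133 to 0.0458 between MB and FB. The highest, 0.250, was that of number 4 at E13 and E18. Such correlations cannot decide whether libraries share an animal or a batch. Lengths and positions came from the GRCm38 annotation. Some genes that the naming rule selects are left out of the text.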

Additional observations from a re-analysis of the deposited data

Results flagged for a closer look

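Among 45 groups of 4 to 6 libraries, one for each gene and group, 2 had a library standing apart by Dixon's criterion, and chance gives about 5% of groups. Irx2 in FB replicate 3 was at 1.29 CPM (12 counts), where the other FB libraries were at 0 to 0.241 CPM. Pax7 in MB replicate 5 was at 0.131 CPM, a single count, where the other MB libraries were at 0.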

How the results depend on the processing

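At E13 against E11, 1 of 5 genes passed (Cnpy1) under all 17 alternatives. At E18 against E13 the count of 1 became 2 with only those ages fitted, 4 with a weight per library and 3 with edgeR on recovered reads, and 1 to 2 with 1 library left out. At P70 against E18 the count of 2 became 1 with a pseudocount of 0.1, 1 with only those ages, 1 with edgeR on recovered reads, and 1 to 2 with 1 library left out. The replicate block left these counts at 1, 1 and 2. The sphere median of 4.22 became 3.73 without a filter, 6.48 with at least 50 counts in 5 libraries (Cnpy1 alone left), 4.59 with the replicate block, and 3.98 to 4.74 with 1 library left out. Irx2 at E13 against E11, at -0.02, turned to 0.024 with equal medians and 0.12 with weights, and ran from -0.30 to 0.25 with 1 library left out. The cause of these shifts was not tested.

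Over all genes, 1071 rose and 1293 fell at E13, against 1639 and 2172 with only those ages and 2218 and 2618 with weights. At E18, 2620 rose and 2923 fell, against 2892 and 3305 with only those ages and 3221 and 3699 with weights. With edgeR on recovered reads of 9034 genes, 2273 rose and 2349 fell at that step. At P70, 2075 rose and 2949 fell, against 2516 and 2247 with equal medians, the median over all genes being -0.14 without that scaling, and 1499 and 1228 with edgeR on recovered reads of 9504 genes. The changes of Cnpy1, Irx3 and Irx5 that passed kept their direction under every alternative run; list genes were not rerun. Genes with few reads, such as Irx1 and Pax7, are limited by depth.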
